A study of Homo sapiens with 2 samples.

Results

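The genes considered here are those that make, break down and control polyamines: ODC1, AMD1, SRM, SMS, SAT1, PAOX, SMOX, AZIN1, OAZ1 and OAZ2. They were picked by symbol for their known function, with earlier results of these data known, and all 10 were found among the 21382 gene symbols of the deposited expression table, at 1 locus each. RNA-Seq had been performed on total RNA of 2 established human PCa cell lines, untreated MDA PCa 2b and untreated RC77 T/E. MDA PCa 2b was grown in a Ham's F-12 variant with serum, cholera toxin, EGF, hydrocortisone, selenite, phosphoethanolamine and insulin, and RC77 T/E in keratinocyte serum-free medium with EGF and bovine pituitary extract. Each line is represented by a single library, so no value has a replicate error, no difference has a replicate check and no test was made. Cell line, culture medium and library cannot be told apart.

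Polyamines (putrescine, spermidine and spermine) are small positively charged molecules that bind nucleic acids and that dividing cells need. Prostate epithelium is known for making and secreting them in unusual amounts, and androgens are known to raise the transcripts of their synthetic enzymes there. Ornithine decarboxylase (ODC1) makes putrescine, S-adenosylmethionine decarboxylase (AMD1) supplies the aminopropyl donor, and spermidine synthase (SRM) and spermine synthase (SMS) add it in successive steps. SAT1 acetylates spermidine and spermine, which marks them for export or for oxidation by PAOX, while SMOX oxidizes spermine directly. Antizymes, encoded by OAZ1 and OAZ2, bind ODC1 protein and send it to the proteasome, and the antizyme inhibitor AZIN1, an ODC1-related protein without enzyme activity, takes antizyme away from ODC1.

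Expression is given as TPM, the reads of a gene per unit of its length in relation to the sum of this quantity over all transcripts of the library. Levels of different genes can thus be set side by side within a library. The number of reads is not recorded, hence the depth behind each value is unknown. In the deposited table most values of 1 TPM or more had lost their decimal mark. For SAT1 and OAZ1 the mark was recovered from the listed mean and standard error of both lines, and for AMD1 and AZIN1 it was read from the study's supplementary table. For the other 6 genes the level could not be fixed and is uncertain by a factor of 10 or 100, and all TPM values that fit are given. Where the supplementary table gave the mark for a gene with the same choice of digits, the lowest position was right in 113 of 145 rows for the choice that ODC1 and SRM have, in 211 of 224 for that of SMS and in 120 of 213 for that of PAOX, SMOX and OAZ2. These rows are the start of an alphabetical table and do not settle the level of a single gene. For these 6 genes the plain ratio between the lines is the same at each of those positions, so it does not rest on the open mark. A ratio with 1 TPM added to each value does change with the position, for PAOX from a log2 value of -0.97 to -1.26. Counts and medians over all genes took the lowest position and so depend on it.

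The labelled tissue was checked against marker genes. MDA PCa 2b had all 7 prostate luminal markers used here at 1 TPM or more, with KLK3 (prostate-specific antigen) at 5322.8 TPM. RC77 T/E had 2 of these 7 at 1 TPM or more, namely the keratins KRT8 and KRT18, whereas KLK3 was listed at 0. All 5 basal markers were at 1 TPM or more in RC77 T/E, with KRT5 at 4026.8 TPM, and 3 of 5 in MDA PCa 2b, where KRT5 was at 0.00435 TPM and TP63 was listed at 0. Markers of immune and endothelial cells were all under 1 TPM in both libraries, and of 6 fibroblast genes 1 reached it, COL1A1 at 8.24 TPM in RC77 T/E. Summed at the lowest position of open marks, the luminal markers came to 6360.4 TPM in MDA PCa 2b and to 356.7 TPM in RC77 T/E, and the basal markers to 44.4 and 8021.7 TPM. Apart from KRT8 and KRT18, luminal and basal marker levels thus differed between the libraries in which every comparison below is made. Their part in it was not tested.

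Short stretches around the sequence CACGTG, the E-box to which MYC with MAX and the USF proteins are known to bind, are shown because they lie at the start regions of ODC1 and SRM, 2 of the 3 members with the largest difference between the lines. They come from RefSeq windows on GRCh38.p14 that run from 250 bases before to 50 bases after a gene start, on the minus strand for both genes, and capitals mark the E-box, which reads the same on either strand.
SRM, chr1:11060202-11060227: ggccgggcccCACGTGgcccctggag
ODC1, first, chr2:10448026-10448051: gggccccgggCACGTGtgcggcgcgc
ODC1, second, chr2:10447992-10448017: cctgcggagaCACGTGgtcgccgagc
The E-box of SRM starts 199 bases upstream of the RefSeq start and lies in no SRM transcript of GENCODE release 29. Transcripts of other genes were not looked at. Those of ODC1 belong to the window of an alternative start, the first beginning 29 bases upstream of it and the second at base 6 downstream. Both are intronic in the 2 ODC1 transcripts of GENCODE that span them. Windows were found for 7 of the 10 members and not for PAOX, SMOX and AZIN1. These members had 10 windows, among them 2 for ODC1 and 3 for AMD1. These letters were absent from the windows of AMD1, SMS, SAT1, OAZ1 and OAZ2 and from the window of the other ODC1 start. Of all 35116 windows, 2548 or 7.26% held the motif, a share of windows and not of genes. A match describes the sequence and is not evidence of binding.

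The antizyme genes share another stretch of importance to the pathway. Their reading frame is interrupted by a TGA stop codon, shown in capitals, and ribosomes are known to shift by a base at it when polyamines are abundant, which gives full-length antizyme.
OAZ1, plus strand, chr19:2271429-2271458: ctcggtggtgctccTGAtgcccctcaccca
OAZ2, minus strand, chr15:64691500-64691529: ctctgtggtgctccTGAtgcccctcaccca
Both stretches are exonic in GENCODE release 29 (GRCh38), in exon 2 of a coding transcript of OAZ1 and of a processed transcript of OAZ2, and 29 of their 30 bases are identical. In 2 of 3 coding transcripts of OAZ1 and in 3 of 4 of OAZ2 that span the site, the annotation leaves out the T of the TGA so that the frame continues. TPM measures the transcripts and carries no information on how often this shift occurs.

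Of the 10 polyamine genes, 9 had less transcript in RC77 T/E, beside 55.6% of the 11624 genes whose mean reached 1 TPM, and SAT1 alone had more. The largest differences were those of the enzymes that open the pathway and of spermidine synthase: MDA PCa 2b had 10.0 times the ODC1, 6.02 times the AMD1 and 4.92 times the SRM transcript. For SMS, the enzyme of the last step, the factor was 1.16. In the other direction, RC77 T/E had 2.51 times the SAT1 transcript.

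**Figure D1:**
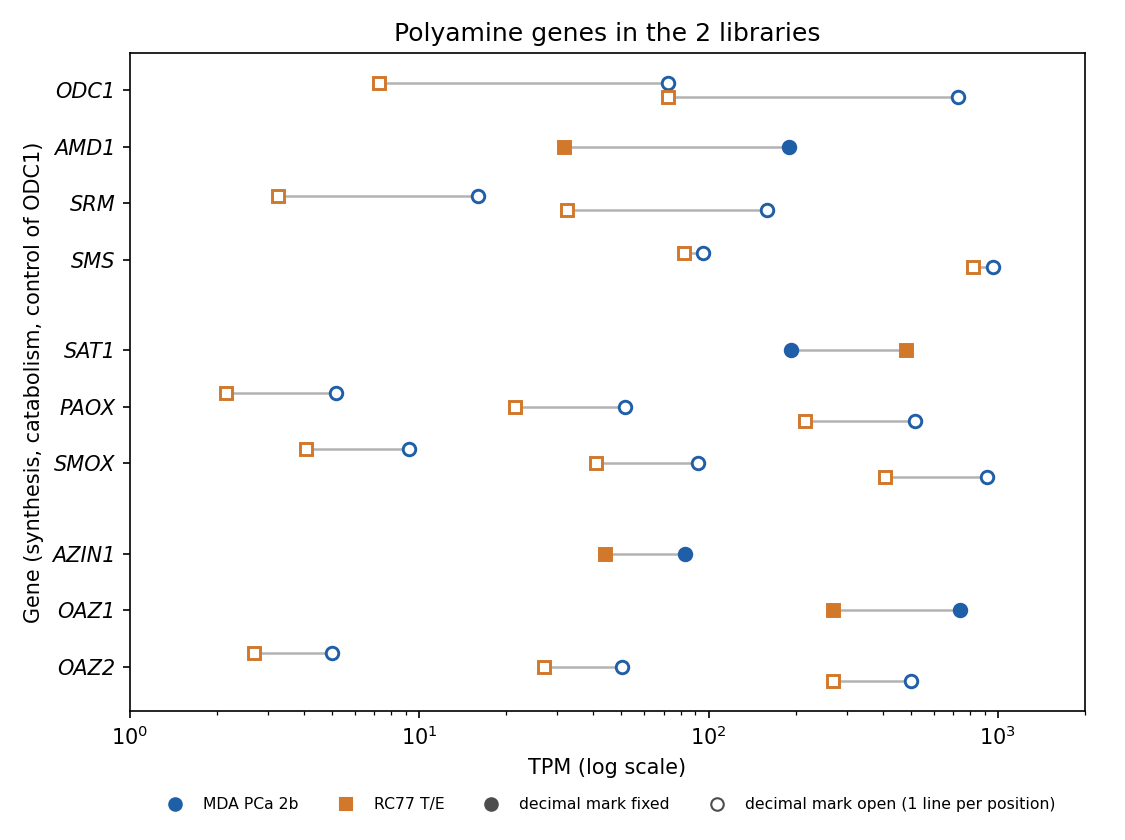
TPM of each polyamine gene (log axis) in MDA PCa 2b (circles) and RC77 T/E (squares), with a grey line joining the values of a gene; filled symbols have a fixed decimal mark, and open symbols show every position that fits, 1 line per position. The circle lies to the right of the square for each gene except SAT1, whose values are 192.2 and 482.0 TPM.

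ODC1 (ENSG00000115758, chromosome 2 of GRCh38, 10439968 to 10448327) measured 72.5 or 725.3 TPM in MDA PCa 2b against 7.24 or 72.4 TPM in RC77 T/E, the lower values belonging together. MDA PCa 2b was the higher library at either position. The 10.0-fold ratio corresponds to a log2 value of -3.32 for RC77 T/E over MDA PCa 2b. Among the 9767 genes at 1 TPM or more in both lines, 96 or 0.983% were lower in RC77 T/E by a ratio at least as large. The small nucleolar RNA gene SNORA80B lies inside ODC1 on the same strand and was listed at 0 in both lines.

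AMD1 (ENSG00000123505, chromosome 6, 110874770 to 110898879), whose product limits the supply of decarboxylated S-adenosylmethionine, was at 190.1 TPM in MDA PCa 2b against 31.6 TPM in RC77 T/E. Its log2 ratio was -2.59, and 241 genes or 2.47% were lower in RC77 T/E by that ratio or more. No value was listed for AMD1P1 to AMD1P4, copies of AMD1, or for SRMP1 and SRMP2, copies of SRM. The origin of any reads shared with such copies is uncertain. SRM (ENSG00000116649, chromosome 1, 11054584 to 11060020) measured 15.9 or 159.3 TPM in MDA PCa 2b against 3.24 or 32.4 TPM in RC77 T/E, a log2 ratio of -2.30 that 349 genes or 3.57% reached. These 3 enzymes thus had ratios that few other genes exceeded, whereas the ratio of SMS did not stand apart. SMS (ENSG00000102172, chromosome X, 21940709 to 21994837) measured 95.8 or 958.3 TPM in MDA PCa 2b against 82.3 or 823.5 TPM in RC77 T/E. Its log2 ratio of -0.22 lay next to the median of -0.26 over the same 9767 genes, of which 51.3% were at or below the ratio of SMS.

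The catabolic genes differed in direction. SAT1 (ENSG00000130066, chromosome X, 23783173 to 23786210), an enzyme known to be induced by polyamine excess, was at 192.2 TPM in MDA PCa 2b against 482.0 TPM in RC77 T/E. Its log2 ratio was 1.33, and 985 genes or 10.1% were higher in RC77 T/E by at least that ratio. SAT1 was the highest in RC77 T/E among the 4 members whose level is fixed, ahead of OAZ1, AZIN1 and AMD1. In MDA PCa 2b it ranked below OAZ1 and next to AMD1.

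The oxidases were both lower in RC77 T/E. PAOX (ENSG00000148832, chromosome 10, 133379261 to 133391694), a peroxisomal enzyme that acts on acetylated polyamines, had 5.16, 51.6 or 515.9 TPM in MDA PCa 2b against 2.15, 21.5 or 215.2 TPM in RC77 T/E, a ratio of 2.40. It shares its end with AL360181.3, a coding gene on the same strand for which no value was listed, so the origin of reads from the overlap is uncertain. SMOX (ENSG00000088826, chromosome 20, 4120980 to 4187747) had 9.21, 92.1 or 920.6 TPM in MDA PCa 2b against 4.07, 40.7 or 406.8 TPM in RC77 T/E, a ratio of 2.26. Ratios of this size were not rare: 16.0% of the 9767 genes were lower in RC77 T/E by at least the ratio of PAOX and 17.9% by at least that of SMOX.

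The genes that control ODC1 protein were lower in RC77 T/E as well, though by less than ODC1 itself. OAZ1 (ENSG00000104904, chromosome 19, 2269509 to 2273490) was the highest in MDA PCa 2b of the 4 members with a fixed level, at 739.6 TPM, and was at 269.1 TPM in RC77 T/E, a ratio of 2.75. It overlaps JSRP1 on the opposite strand, which was at 0.158 TPM in MDA PCa 2b while RC77 T/E listed it at 0, and AC005258.1 on its own strand. OAZ2 (ENSG00000180304, chromosome 15, 64687573 to 64703281) had 5.01, 50.1 or 501.0 TPM in MDA PCa 2b against 2.69, 26.9 or 268.9 TPM in RC77 T/E, a ratio of 1.86. AZIN1 (ENSG00000155096, chromosome 8, 102826111 to 102893864) measured 83.1 TPM in MDA PCa 2b against 44.0 TPM in RC77 T/E, a ratio of 1.89, and overlaps antisense transcripts. Ratios at least as large as those of OAZ1, AZIN1 and OAZ2 were found for 12%, 24.6% and 25.3% of genes.

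**Figure D2:**
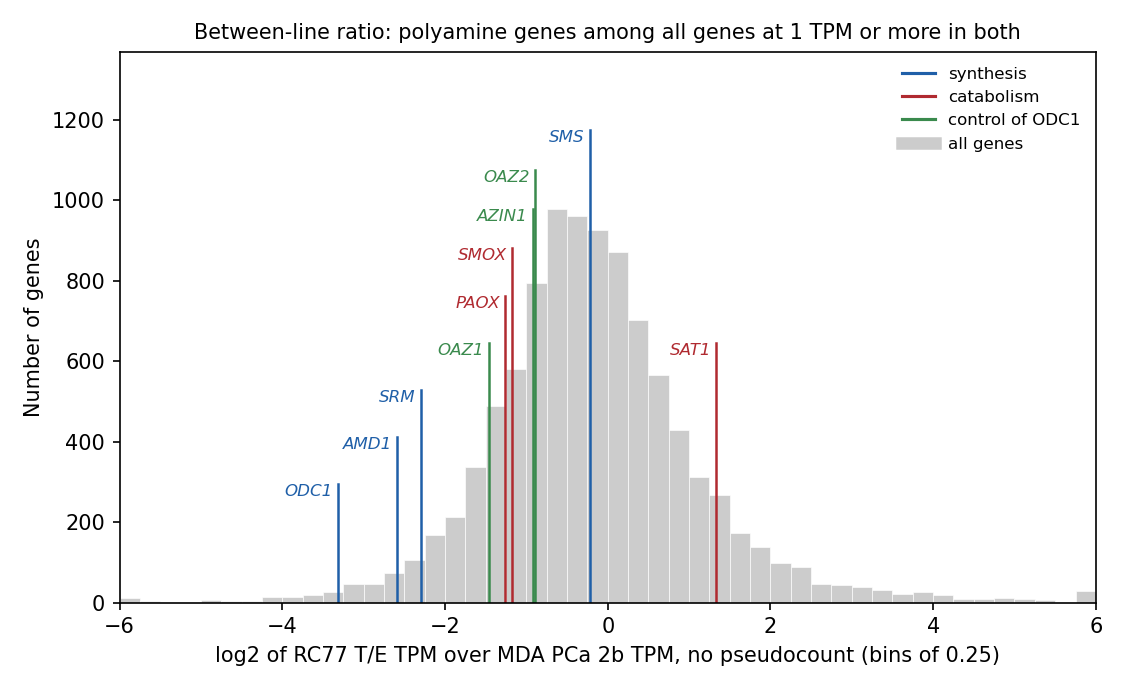
Number of genes (grey bars) by log2 of RC77 T/E TPM over MDA PCa 2b TPM without pseudocount, for the 9767 genes at 1 TPM or more in both lines; the end bins also hold genes beyond the axis, and the 10 polyamine genes are vertical lines coloured by role, whose heights carry no value. ODC1, AMD1 and SRM lie in the left tail at -3.32, -2.59 and -2.30, SMS lies near the median of -0.26, and SAT1 lies to the right at 1.33.

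Counted with a pseudocount of 1 TPM, which understates the change of low genes, 5 of the 10 members (ODC1, AMD1, SRM, SMOX and OAZ1) were at least 2-fold lower in RC77 T/E and 1 (SAT1) was at least 2-fold higher. Over the same 11624 genes, 20.1% were at least 2-fold lower in RC77 T/E and 19.4% at least 2-fold higher. The median log2 ratio of the members on this scale was -0.99, beside -0.15 over all these genes. SMOX and PAOX sit at either side of the limit, with folds of 2.01 and 1.95 at the lowest position of the decimal mark, and PAOX passes it at the higher positions. Without a pseudocount 6 members were at least 2-fold lower, PAOX being the sixth, beside 22.2% of the 9767 genes, and SAT1 was at least 2-fold higher, beside 14.1%. Centring on the median of all genes took SMOX under the limit and left SMS, at -0.06, the member closest to no difference.

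Ratios between members within a library do not depend on how the libraries are scaled. SAT1 transcript was 0.260 times that of OAZ1 in MDA PCa 2b but 1.79 times in RC77 T/E, a change of 6.89-fold. Relative to AMD1, SAT1 was at 1.01 in MDA PCa 2b but 15.3 in RC77 T/E, a change of 15.1-fold. Set against ODC1, SAT1 was higher in RC77 T/E by a factor of 25.1. Since SAT1 was the one member with more transcript in RC77 T/E, each of these shifts is the product of opposite differences.

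The same measure was applied to ODC1 and its regulators. ODC1 transcript was higher in MDA PCa 2b by a factor of 3.64 relative to OAZ1, of 5.38 relative to OAZ2 and of 5.31 relative to AZIN1. With the mark of OAZ1 fixed and that of ODC1 open, ODC1 stood at 0.0981 or 0.981 times OAZ1 in MDA PCa 2b against 0.0269 or 0.269 times in RC77 T/E, under OAZ1 in both lines at either position. AZIN1 stood at 0.112 times OAZ1 in MDA PCa 2b but 0.164 times in RC77 T/E. Between the synthases, SRM relative to SMS was higher in MDA PCa 2b by a factor of 4.23. The oxidases kept step, SMOX over PAOX changing by 1.06-fold.

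Genes next to the pathway were described in 6 lists drawn from textbook biochemistry, 37 genes in all, of which 35 were in the table and 28 reached a mean of 1 TPM. Of these 28, 8 were at least 2-fold lower in RC77 T/E and 6 at least 2-fold higher, beside 20.1% and 19.4% of all genes, with a median log2 ratio of -0.30 beside -0.15. AGMAT, OAZ3 and SLC22A3 reached that mean only through the library in which they were higher, so the direction of their difference follows from the limit. Over the 25 genes at 1 TPM or more in both lines, a set chosen after seeing the data, 7 were at least 2-fold lower and 4 at least 2-fold higher, beside 18.3% and 11.6% of the 9767 genes. The median was then -0.34, beside -0.22. The shares of these few genes were near those of all genes, and the lists are given as a description. SLC25A15 and AZIN2 were not analysed here.

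Of the paralogs of members, OAZ3 and SAT2 were lower in RC77 T/E. SAT2, which resembles SAT1 but is known to prefer other substrates, was at 3.74 or 37.4 TPM in MDA PCa 2b against 1.19 or 11.9 TPM in RC77 T/E, a 3.15-fold difference opposite in direction to that of SAT1. OAZ3, the antizyme known from testis, was at 6.44 TPM in MDA PCa 2b against 0.704 TPM in RC77 T/E. SATL1 was at or near 0 in both lines. SAT2 was the paralog at 1 TPM or more in both lines.

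Of the 5 transport genes at 1 TPM or more in both lines, RC77 T/E had at least 2-fold more transcript of 2, beside 11.6% of all genes, and at least 2-fold less of 0, beside 18.3%. GPC1, which encodes the heparan sulphate proteoglycan glypican-1, a proposed route of polyamine uptake, was at 2.99 or 29.9 TPM in MDA PCa 2b against 96.1 or 961.3 TPM in RC77 T/E, 32.2 times as high. SLC22A3, an organic cation transporter, is not among these 5, as MDA PCa 2b had 0.162 TPM against 4.45 TPM in RC77 T/E. ATP13A3, a polyamine-transporting ATPase, was at 14.1 TPM in MDA PCa 2b against 36.3 TPM in RC77 T/E. Its lysosomal relative ATP13A2 was at 35.8 and 28.0 TPM, and the vesicular carrier SLC18B1 at 17.3 and 16.6 TPM. SLC3A2 was higher in RC77 T/E by a factor of 1.47. SLC22A2 and ATP13A4 were under 1 TPM in both lines.

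Ornithine supply was mixed. Of its 4 genes at 1 TPM or more in both lines, RC77 T/E had at least 2-fold more of 1 and at least 2-fold less of 2. The shares over all 9767 such genes were 11.6% and 18.3%. The median log2 ratio of the 4 genes was -0.50. With AGMAT, which reached the mean of 1 TPM only through RC77 T/E, the median was 0.23. ALDH18A1, which starts ornithine and proline synthesis from glutamate, was at 84.1 TPM in MDA PCa 2b against 34.6 TPM in RC77 T/E, and the arginine importer gene SLC7A1 was higher in MDA PCa 2b by a factor of 3.15. OAT, the mitochondrial ornithine aminotransferase, was higher in RC77 T/E by a factor of 2.45, and AGMAT was at 0.232 and 2.88 TPM. The arginase gene with measurable transcript, ARG2, was at 12.1 and 14.4 TPM, and ARG1 was at 0.0390 and 0.0200 TPM.

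Among 8 genes of methionine use and salvage, 2 were at least 2-fold lower in RC77 T/E, beside 20.1% of all genes. At least 2-fold higher was 1, beside 19.4%, and the median was -0.25. MAT2A, which makes S-adenosylmethionine, was at 137.7 and 132.0 TPM, and AHCY at 193.1 and 162.5 TPM. Enzymes that recover methionine from methylthioadenosine, the by-product of SRM and SMS, differed in direction. MTAP, the first of them, was higher in RC77 T/E by a factor of 2.27, while APIP was at 26.5 and 6.66 TPM and ADI1 at 104.1 and 25.1 TPM (MDA PCa 2b given first). ENOPH1 was higher in MDA PCa 2b by a factor of 2.32 without pseudocount. MRI1 was higher in MDA PCa 2b by a factor of 1.21 and MAT2B 1.97 times as high in RC77 T/E, and MAT1A was under 1 TPM in both.

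Spermidine is also the substrate for hypusine, a modified lysine found in the translation factor eIF5A. The 3 genes of this step with a mean of 1 TPM or more were lower in RC77 T/E, as were 55.6% of all genes, and 1 of them was lower by at least 2-fold, as were 20.1%. EIF5A was at 709.4 TPM in MDA PCa 2b against 367.8 TPM in RC77 T/E, while MDA PCa 2b had 1.76 times the DHPS and 2.44 times the DOHH transcript. The paralog EIF5A2 was at 0.00538 TPM in MDA PCa 2b against 1.74 TPM in RC77 T/E, with a mean under 1 TPM.

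Of the factors known to bind the E-box, 4 reached a mean of 1 TPM, with a median log2 ratio of -0.57. MYC, known to drive ODC1 transcription, was at 8.75 or 87.5 TPM in MDA PCa 2b against 14.8 or 147.9 TPM in RC77 T/E, 1.69 times as high. Whether the levels of these factors bear on those of ODC1 or SRM was not tested. MAX, the partner of MYC, was at 29.5 and 18.9 TPM and USF1 at 28.8 and 19.8 TPM (MDA PCa 2b given first). USF2 was higher in MDA PCa 2b by a factor of 2.85, the only one of the 4 past 2-fold. Of all genes, 20.1% were at least 2-fold lower in RC77 T/E and 19.4% at least 2-fold higher. MYCN was at 0.0763 TPM in MDA PCa 2b against listed at 0 in RC77 T/E.

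**Figure D3:**
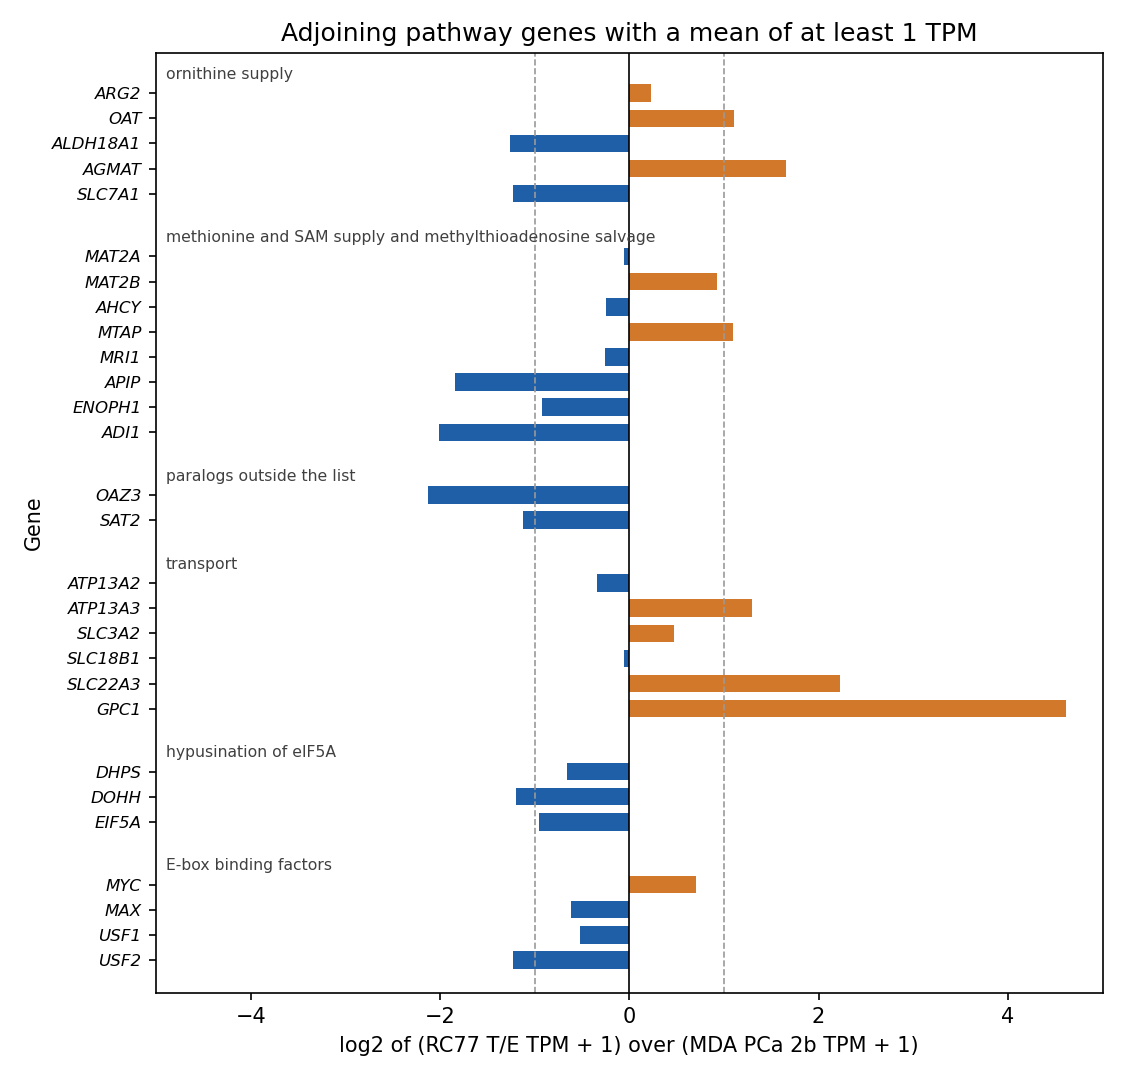
Log2 ratio (RC77 T/E over MDA PCa 2b, 1 TPM added to each), with open decimal marks at their lowest position, for the 28 genes of the adjoining lists whose mean reached 1 TPM; dashed lines mark 2-fold. Of the bars, 8 pass the dashed line to the left (lower in RC77 T/E) and 6 pass it to the right, GPC1 the farthest at 4.61.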

How the data were processed

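A single RNA-Seq library of each untreated line was available. The submitters' processing notes name CASAVA, FastQC 0.11.9, Trimmomatic 0.38, Salmon 1.2.0 and GRCh38, and the authors deposited TPM per locus (normalized for gene length and library total) with the mean and standard error of both lines. Per the file headers all are TPM, but values of 1 or more, most of them written with commas, had lost their decimal mark. Cells without commas, among them those of 195 loci with 4 or more digits before the mark, were read as written. In cells with commas each position leaving 1 to 3 digits before it and at least 3 after was tried, and those giving the deposited mean and standard error were kept. For 29 loci, none of a listed gene, no position gave them and all were kept. Of 22704 loci, 15930 had 1 position, 720 took it from the supplementary table and 6054 kept several, of which the lowest was used for counts and medians. In the supplementary rows with several positions the lowest was right in 77.5%.

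Loci of a symbol were summed. Log2 ratios used a pseudocount of 1 TPM and counts a limit of 2-fold over genes whose mean reached 1 TPM. All members and all genes of the adjoining lists used are named; 3 genes first placed in the marker and transport lists are left out of them and not reported here. Members and lists were chosen with earlier results of these data known. Python 3.11.15, numpy 2.4.6 and matplotlib 3.10.9 were used. The restoration was tested on simulated data written by the digit rules it assumes, so that test cannot question these rules. Of 1278 supplementary rows with 1 position, 1278 had the values of that position.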

Additional observations from a re-analysis of the deposited data

How the results depend on the processing

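With a pseudocount of 0.1 TPM, centring on the median of all genes, scaling to the same upper quartile or the highest position of open marks, the 10 members kept the sign of their log2 ratios, and only that of SMS moved by more than 1.5 times, under centring and scaling. The median of the members ranged over these settings from -1.22 to -0.84. At a limit of 1.5-fold, 8 members were lower in RC77 T/E, and of all genes 3934 in place of 2339. At 4-fold, 2 members were lower and 0 higher, 2 adjoining genes were lower and 2 higher, and of all genes 721 were lower and 1127 higher. SRM sat at that limit, with a rounded log2 ratio of -2.00 at the lowest position and -2.26 at the highest, and was 4.92-fold lower without pseudocount. The median of the adjoining lists was -0.15 with centring and -0.17 with scaling. Without a pseudocount, over genes at 1 TPM or more in both lines and chosen after seeing the data, 1377 genes were at least 2-fold higher, in place of 2257. Reading the commas as digit grouping gave 3 members lower and 2 higher with a median of -0.56, and turned the log2 ratios of AMD1 (0.73), SRM (1.02), SAT1 (-8.64) and OAZ1 (8.51), while that of ODC1 went to -0.00, because a value is then inflated by the number of its decimals. No paired analysis was possible because each line has 1 library. The depth is unknown, so no limit of detection can be given for values near 0.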
